A study of Mus musculus with 8 samples.

Results

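The genes described here are the variable (V) gene segments of the mouse immunoglobulin heavy chain locus, taken as every gene of the count table whose symbol starts with Ighv. There were 120 of them among 27179 genes counted. All lie on the minus strand of chromosome 12 between positions 113578504 and 116009954 (GRCm38), a stretch of 2431.5 kb. They were ordered by position, starting at the end nearest the D, J and constant segments, and grouped by V family. The proximal class holds the 9 Ighv2 and 10 Ighv5 genes, in the first 300.9 kb (113578504 to 113879388). The distal class holds the 60 Ighv1 genes, which spread over 1522.8 kb (114487136 to 116009954). The other 41 genes belong to 13 smaller families that lie between the 2 classes or, like Ighv8, are interspersed among the Ighv1 genes. RefSeq lists 183 Ighv genes in this build, and the 63 without a row in the table are V segment pseudogenes.

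RNA was sequenced from sorted bone marrow cells of mice aged 7 to 10 weeks, with 2 replicates in each of 4 groups. Mice with floxed Erg alleles and no Cre (Ergfl/fl, here the control) gave pre–proB, proB and preB cells, which follow one another in early B cell development. A further group was pre–proB cells of Rag1CreT/+;ErgΔ/Δ mice (here Erg-deficient), in which Cre driven from Rag1 deletes Erg, an Ets family transcription factor, in lymphoid progenitors. Both Cre and the loss of Erg thus separate the genotypes, and all groups were defined by surface sorting of cells negative for surface IgM and IgD.

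V genes supply the antigen-contacting part of the heavy chain. The Rag1 and Rag2 recombinase first joins a D to a J segment and then joins a V gene to the DJ unit, and the distal V genes must be brought close to the D and J segments by contraction of the locus, which needs Pax5 and other looping factors, while the proximal genes can be joined without it. A V gene gives RNA both before joining, as a germline transcript of an accessible locus, and after joining, as part of the heavy chain mRNA. Counts per V gene do not tell germline from joined transcripts, and in bulk samples fewer cells that express a gene and less RNA per cell cannot be told apart.

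The V genes are close relatives, so the sequences of 6 genes on which the results turn are shown. They are the last 294 bases of each V exon from GENCODE M21 transcripts, written 5′ to 3′ on the minus strand of GRCm38, and the capitals mark the TGT codon of the conserved second cysteine. Ighv2-2 (chr12:113588267-113588560) and Ighv2-3 (chr12:113611187-113611480) are proximal, and Ighv14-1 (chr12:113931953-113932246) and Ighv9-3 (chr12:114140692-114140985) lie between the classes. Ighv1-72 (chr12:115757984-115758277) and Ighv1-80 (chr12:115912344-115912637) are distal. Ighv2-3 and Ighv1-80 had the most counts of 1 control pre–proB library each, Ighv14-1 and Ighv9-3 those of 1 Erg-deficient library, Ighv2-2 was counted in every library, and Ighv1-72 had the lowest adjusted p between the genotypes. Ighv2-2 and Ighv1-72 were chosen after their values were seen.
Ighv2-2: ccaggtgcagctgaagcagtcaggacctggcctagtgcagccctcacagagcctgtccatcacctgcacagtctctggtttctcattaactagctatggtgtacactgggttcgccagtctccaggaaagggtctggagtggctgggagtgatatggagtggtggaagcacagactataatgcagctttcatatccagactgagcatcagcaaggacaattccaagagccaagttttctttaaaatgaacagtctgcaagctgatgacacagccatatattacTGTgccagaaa
Ighv2-3: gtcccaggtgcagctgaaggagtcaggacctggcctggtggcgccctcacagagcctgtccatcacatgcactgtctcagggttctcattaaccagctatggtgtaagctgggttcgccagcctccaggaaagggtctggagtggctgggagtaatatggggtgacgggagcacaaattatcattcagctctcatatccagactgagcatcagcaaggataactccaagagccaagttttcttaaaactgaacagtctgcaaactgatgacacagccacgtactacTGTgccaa
Ighv14-1: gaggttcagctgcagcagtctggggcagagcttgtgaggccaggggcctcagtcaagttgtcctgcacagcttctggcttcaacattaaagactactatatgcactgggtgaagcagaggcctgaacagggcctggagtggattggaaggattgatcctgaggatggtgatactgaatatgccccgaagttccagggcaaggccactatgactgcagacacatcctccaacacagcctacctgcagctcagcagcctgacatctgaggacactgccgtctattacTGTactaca
Ighv9-3: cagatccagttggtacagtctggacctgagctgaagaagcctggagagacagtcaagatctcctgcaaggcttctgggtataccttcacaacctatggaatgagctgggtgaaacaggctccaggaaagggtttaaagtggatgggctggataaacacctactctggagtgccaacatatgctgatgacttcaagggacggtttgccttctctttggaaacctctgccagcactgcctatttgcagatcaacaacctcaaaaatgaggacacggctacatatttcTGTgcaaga
Ighv1-72: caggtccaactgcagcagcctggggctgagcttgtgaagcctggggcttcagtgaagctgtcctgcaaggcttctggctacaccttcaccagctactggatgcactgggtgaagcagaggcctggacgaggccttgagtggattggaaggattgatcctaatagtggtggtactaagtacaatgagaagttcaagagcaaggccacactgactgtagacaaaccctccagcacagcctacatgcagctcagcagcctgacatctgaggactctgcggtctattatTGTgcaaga
Ighv1-80: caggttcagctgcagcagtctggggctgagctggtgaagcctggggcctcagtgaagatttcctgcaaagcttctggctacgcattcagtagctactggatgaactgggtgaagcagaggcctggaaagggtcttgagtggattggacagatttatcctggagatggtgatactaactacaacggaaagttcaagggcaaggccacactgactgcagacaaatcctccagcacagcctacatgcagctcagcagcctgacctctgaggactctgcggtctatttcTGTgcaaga

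Identity among the 6 sequences varied between and within families. Over these 294 bases, aligned with gaps counted as differences, Ighv2-2 was 87.8% identical to Ighv2-3, and Ighv1-72 was 88.1% identical to Ighv1-80. Ighv2-3 and Ighv1-72 shared 55.8%, the lowest identity among the 6, while Ighv14-1 was nearer to Ighv1-80 (83.3%) than to its neighbour Ighv9-3 (62.6%). Over the whole transcript, the median identity of a gene to its nearest Ighv relative was 95%, at 94.6% for proximal, 93.4% for other and 96.2% for distal genes. A read can be assigned only where copies differ, and 40 of the 120 genes shared at least 1 stretch of 100 bases, the read length, with another Ighv gene (4 proximal, 8 other and 28 distal). In 2 genes, Ighv1-71 and Ighv1-62-2, which are 99.7% identical, more than 50% of such stretches were shared. Ighv1-72 shared 42.8% of its stretches (nearest relative Ighv1-62-3, 99.2% identical) and Ighv2-2 shared 24.1%, so their values are less certain, while Ighv2-3, Ighv14-1, Ighv9-3 and Ighv1-80 shared none. The 9 members that GENCODE calls pseudogenes held 129 of 66939 Ighv counts, or 0.193%.

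The libraries held between 15565381 and 18457632 counts in genes. At this depth 3 counts, the number used as the limit for a gene without a count, correspond to between 0.157 and 0.194 CPM (counts scaled by library size). Erg was at 69.8 and 25.1 CPM in the control pre–proB libraries and at 2.49 and 2.58 in the Erg-deficient ones. Genes of early B cells (Cd79a, Vpreb1, Igll1, Ebf1, Pax5 and Rag1) moved with the V genes between genotypes and from pre–proB to proB cells. Summed, they were at 984 and 355 CPM in control and 13.7 and 17.4 in Erg-deficient pre–proB cells (6 of 6 lower), 3010 and 2850 at the proB stage (6 of 6 higher than pre–proB) and 3760 and 4100 at the preB stage (1 higher and 2 lower than proB). Markers of plasmacytoid dendritic cells, which share part of the pre–proB surface phenotype, summed to between 12200 and 14600 CPM in the 4 pre–proB libraries and to between 603 and 961 in the proB and preB libraries, with 0 of 6 called between genotypes. Markers of plasma cells summed to 1300 and 1380 CPM in control pre–proB, 1370 and 1600 in proB cells, 317 and 343 in preB cells, and 641 and 883 without Erg (3 of 10 tested lower). The 3 were the IgG constant region genes Ighg2b, Ighg2c and Ighg3. Xbp1, which was not called, alone made up 412 and 481 CPM of the control and 487 and 532 of the Erg-deficient pre–proB sums. T cell markers were at 616 and 763 CPM in control and 1420 and 781 in Erg-deficient pre–proB cells, against at most 16.0 in the later stages (0 of 7 called between genotypes). Most of these pre–proB sums came from Cd4 (478 and 609 against 1210 and 622 CPM) and Cd8a (113 and 120 against 184 and 126). Cd3e, Cd3d, Cd3g, Trac and Trbc1 were each at most 11.9 CPM. NK cell markers rose with Erg deficiency (4 of 5, from 23.4 and 25.9 to 79.1 and 137 CPM). Mature B cell markers (478 and 519 against 516 and 563 CPM), myeloid markers (161 and 131 against 106 and 83.3) and erythroid markers (1.04 and 1.33 against 1.55 and 2.25) did not pass the test between genotypes, apart from 1 mature B cell gene that was lower. Fcrla made up most of the mature B cell sum (376 and 408 against 442 and 495 CPM). The gene called lower was Ms4a1 (7.9 and 6.51 against 0.249 and 1.16 CPM). Cd22, Ighd, Fcer2a and Cr2 were also below control in both Erg-deficient libraries, without a call. The part of these cell types in the V gene counts was not tested.

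V gene RNA was higher at each later stage in control cells and lowest without Erg. Summed over the 120 genes, the level was 273 and 204 CPM at the control pre–proB stage (238 ± 48.8, mean ± SD, n = 2). It was 603 and 657 in proB cells (630 ± 38.4) and 964 and 1020 in preB cells (993 ± 41.2). The Erg-deficient libraries stood at 3.54 and 48.7 CPM (26.1 ± 31.9), from 57 and 756 counts. The 4 groups did not overlap, and the Erg-deficient replicates differed from each other 13.7-fold. The mean was 2.64 times higher in proB than in control pre–proB cells and 1.58 times higher in preB than in proB cells. It was 9.12 times higher in control than in Erg-deficient pre–proB cells, or 4.89 times without Erg-deficient replicate 1 and 67.2 times without replicate 2. The sums are given as values with no test; a two-sided exact permutation of 2 against 2 libraries cannot give a p below 0.33.

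The means of each class followed that order, with ratios between genotypes that varied by class and by library. Proximal genes summed to 14.6 and 86.5 CPM in control pre–proB, 86.3 and 109 in proB cells, 142 and 160 in preB cells, and 0.87 and 3.8 without Erg. The 2 control pre–proB libraries were far apart here, and the higher of them reached the level of the lower proB library. Distal genes summed to 161 and 88.3 CPM in control pre–proB, 316 and 366 in proB cells, 510 and 550 in preB cells, and 1.74 and 3.99 without Erg. The other families summed to 97.0 and 28.9 CPM, 200 and 182, and 312 and 312 in the 3 control stages, and to 0.932 and 40.9 in Erg-deficient cells, so in this class the higher Erg-deficient library lay above the lower control library. As ratios of means, control exceeded Erg-deficient pre–proB cells 21.6-fold for proximal, 43.5-fold for distal and 3.01-fold for other genes. With 1 library left out these ratios ranged from 6.24 (without control replicate 2) to 58.1 for proximal, from 30.8 (without control replicate 1) to 71.7 for distal and from 1.38 (without control replicate 1) to 67.5 for other genes, the highest each time without Erg-deficient replicate 2. The ranges overlap, and the difference between classes was not tested.

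**Figure D1:**
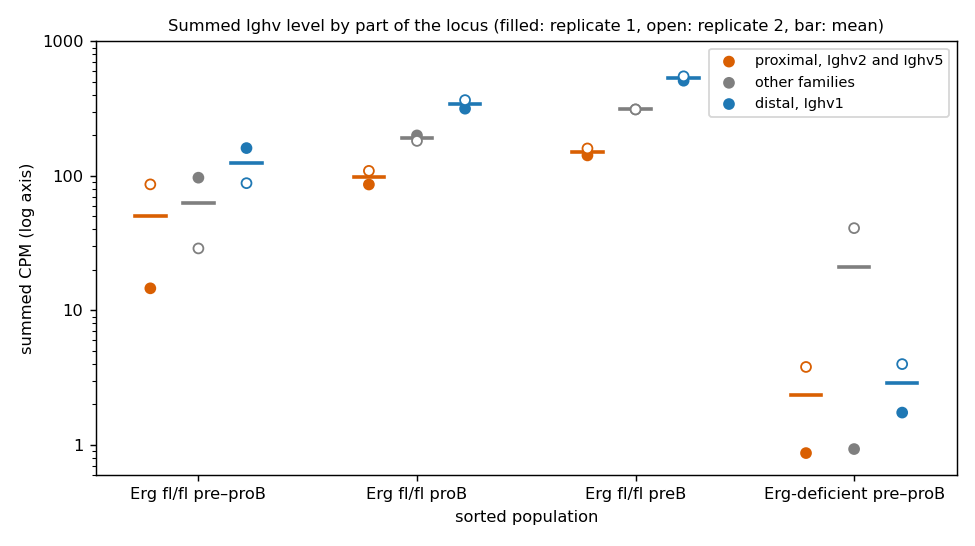
Summed level of the proximal, other and distal Ighv genes (CPM, log axis) in each library; filled circles are replicate 1, open symbols replicate 2 and bars the mean of 2 libraries. The preB libraries are highest in each class, and the Erg-deficient libraries lie below 4 CPM in the proximal and distal classes, while 1 of them reaches 40.9 CPM in the other families.

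The classes were used in similar proportions in proB and preB cells, with wider differences between libraries in pre–proB cells. Distal genes held 52.4% and 55.8% of V gene counts in the proB libraries and 52.9% and 53.8% in the preB libraries, and proximal genes held 14.3%, 16.5%, 14.7% and 15.6% in the same order. The distal level was between 3.37 and 3.66 times the proximal level in these 4 libraries. In control pre–proB replicate 1 distal genes held 59.1% and proximal genes 5.35%, and in replicate 2 the shares were 43.4% and 42.5%, ratios of 11.0 and 1.02. Among the 57 counts of Erg-deficient replicate 1 the distal share was 49.1% (exact Clopper-Pearson 95% interval 35.6 to 62.7) and the proximal share 24.6% (14.1 to 37.8). In Erg-deficient replicate 2 the shares were 8.2% (6.35 to 10.4) and 7.8% (5.99 to 9.95), since 84.0% of its counts fell in other families. These intervals cover counting error only. The distal to proximal ratios of the Erg-deficient libraries (2.0 and 1.05) lay below those of the proB and preB libraries and within the range of the control pre–proB libraries.

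**Figure D2:**
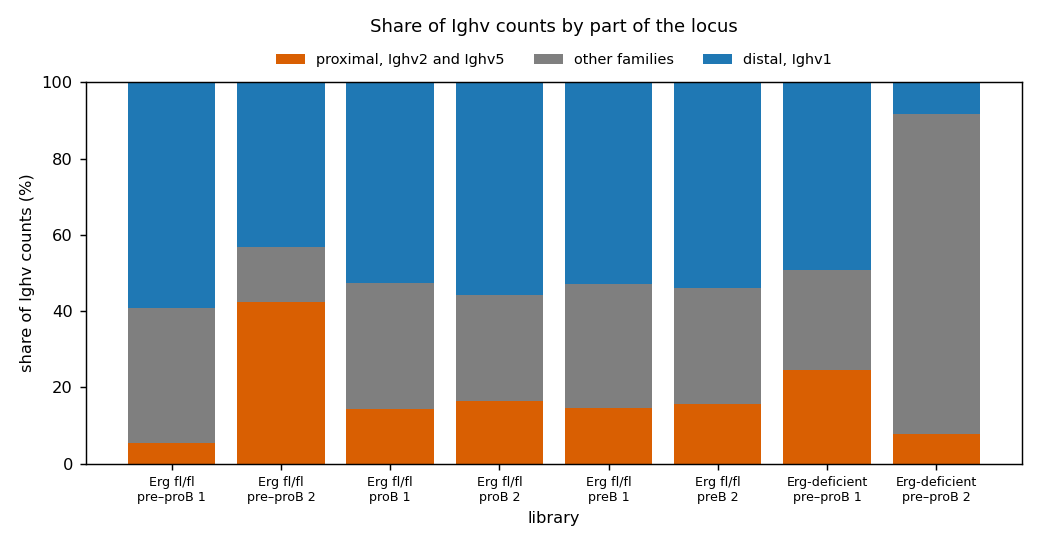
Share of V gene counts (percent, stacked to the whole) in proximal, other and distal genes for each of the 8 libraries. The proB and preB bars are alike, while the pre–proB replicates of both genotypes differ from each other.

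In the pre–proB libraries a few genes carried much of the V gene RNA, and different genes did so in each replicate. In control replicate 1, the distal Ighv1-80 had 1107 counts (26.3% of V gene counts) and Ighv8-8 had 490 (11.6%). In control replicate 2 these genes had 106 and 5 counts, and the proximal Ighv2-3 (690 counts, 20.4%) and Ighv5-9 (319, 9.44%) led in their place, with 24 and 0 counts in replicate 1. The 5 highest genes of a library held 50.9% and 42.8% of V gene counts in the control pre–proB libraries. Their share was 20.5% and 19.1% at the proB stage, 19.8% and 19.4% at the preB stage, and 86.0% and 88.8% without Erg. The inverse Simpson number, which counts how many equally used genes would give the same evenness, was 10.5 and 15.1 in control pre–proB, between 47.9 and 50.7 in the proB and preB libraries, and 5.81 and 3.11 in Erg-deficient libraries. The pre–proB libraries also had fewer V gene counts, with 3378 and 4209 in control and at least 10956 in each later library. The part of depth in the evenness was not tested.

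**Figure D3:**
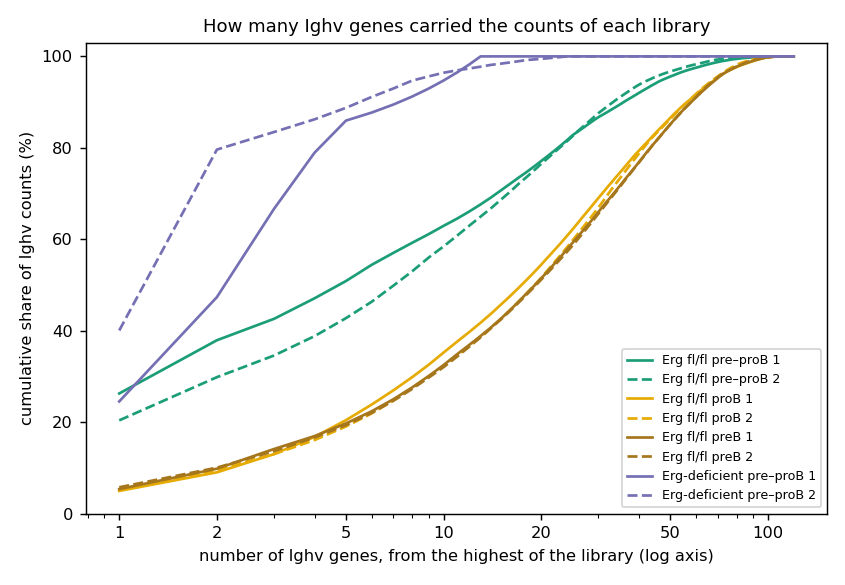
Cumulative share of V gene counts (percent) against the number of Ighv genes taken from the highest down (log axis), with 1 line per library, solid for replicate 1 and dashed for replicate 2. At 5 genes the Erg-deficient lines reach 86.0% and 88.8% and the control pre–proB lines 50.9% and 42.8%, above the proB and preB lines at 19.1% to 20.5%.

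Agreement between replicates followed the same split. Over the 106 genes with at least 10 counts in all libraries together, Pearson's r of log2 counts between replicates was 0.55 in control pre–proB, 0.92 in proB, 0.99 in preB and 0.32 in Erg-deficient cells, which describes genes of 1 locus and carries no test. The share of V gene counts that both replicates assigned alike was 38.1%, 83.3%, 95.7% and 18.4%. Among the 42 genes with at least 50 counts over both control pre–proB libraries, the median fold between replicates was 3.05, and 17 genes differed over 4-fold, 10 higher in replicate 1 and 7 in replicate 2. Ighv8-8 differed most, 105-fold. In proB cells the median fold was 1.3 over 76 genes, and 2 differed over 4-fold, Ighv5-9 (31 and 226 counts, 6.93-fold) and Ighv1-22 (105 and 641 counts). In preB cells the median was 1.08 over 85 genes, and none differed over 4-fold, the widest being Ighv2-6-8 at 1.9-fold. Ighv5-9 and Ighv1-22, like Ighv2-6-8, were named after their values were seen.

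Levels varied widely between genes of each class. Per kilobase of gene length, the highest means in control pre–proB cells were Ighv1-80 (133 CPM per kb) and Ighv2-3 (73.6), each set by 1 library. The distal Ighv1-26 led in proB cells (102) ahead of Ighv1-9 (70.4), and led again in preB cells (189) ahead of Ighv8-8 (132). In Erg-deficient cells Ighv14-1 (32.8) and Ighv9-3 (23.1) were highest. Not scaled by length, the median gene was at 0.406 CPM in control pre–proB, 2.9 in proB, 5.15 in preB and 0 in Erg-deficient cells. The number of genes with at least 1 count was 99 and 89 in control pre–proB, between 109 and 111 in the proB and preB libraries, and 13 and 24 in Erg-deficient libraries. In 5 genes (Ighv7-2, Ighv16-1, Ighv13-1, Ighv1-16 and Ighv1-19-1) no library had a count, and 14 genes, those 5 included, had fewer than 10 counts in all. Level per kilobase had little relation to position, with Spearman's rho of −0.04 in control pre–proB, −0.08 in proB, −0.04 in preB and −0.19 in Erg-deficient cells over 106 genes, given as a description.

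**Figure D4:**
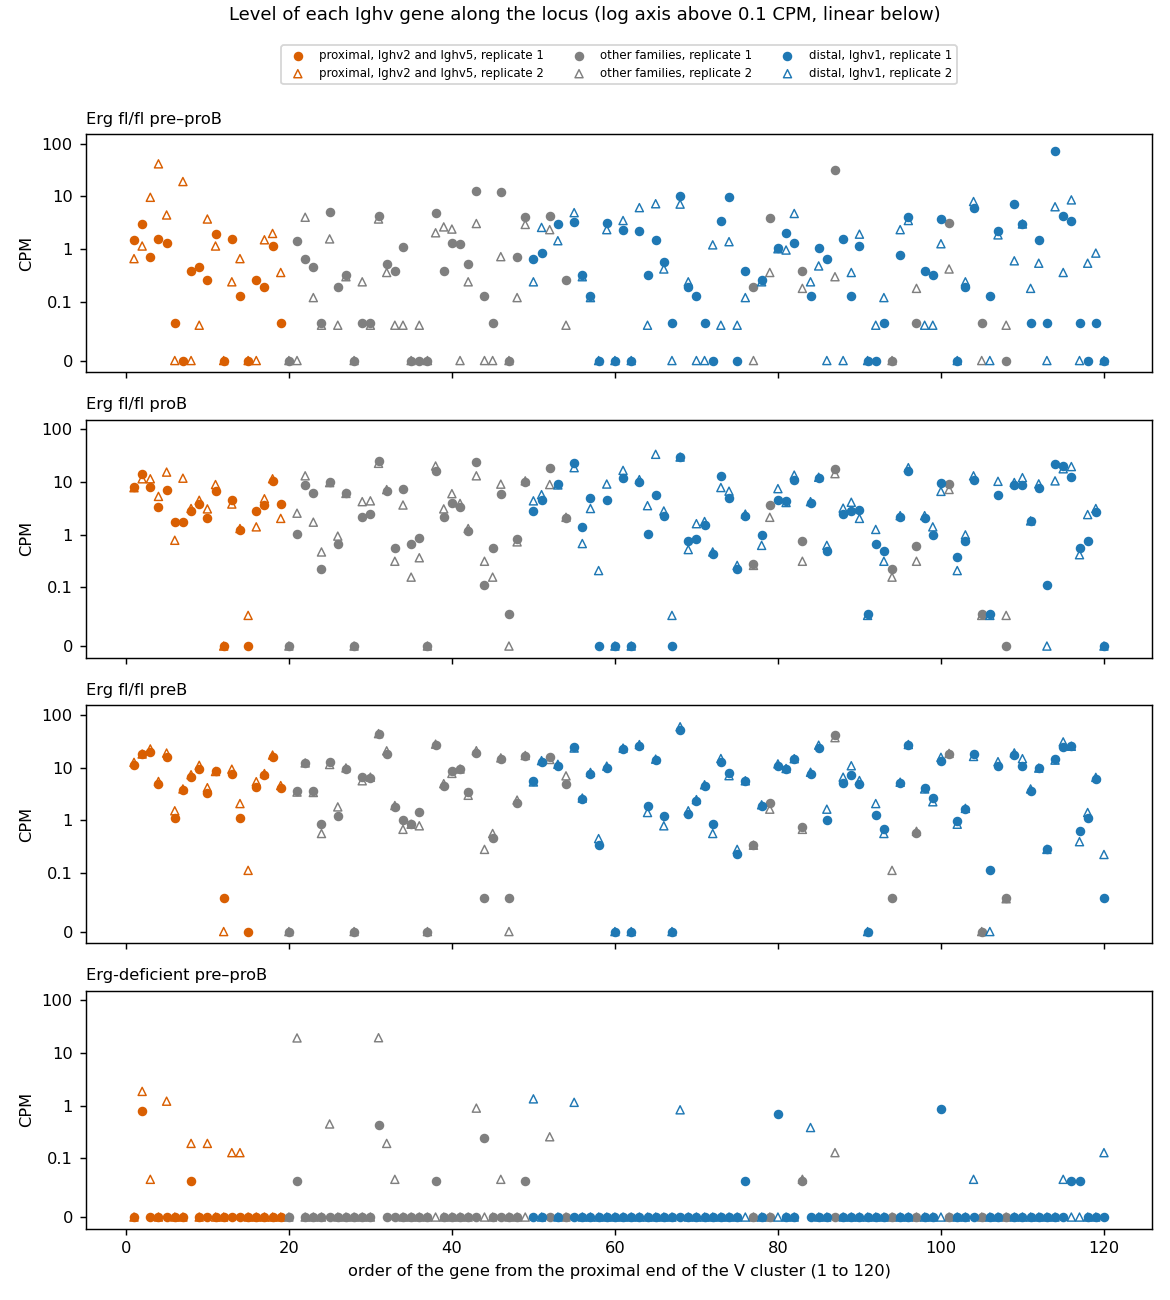
Level of each Ighv gene (CPM, log axis above 0.1 CPM and linear below) against its order from the proximal end, 1 panel per group; filled circles are replicate 1, open triangles replicate 2, and colour gives the class (orange proximal, grey other, blue distal). Replicates lie on each other in preB cells, scatter in control pre–proB cells, and 88 genes are at 0 in both replicates of Erg-deficient cells, where Ighv9-3 and Ighv14-1 stand highest in replicate 2.

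The comparison of Erg-deficient with control pre–proB cells asks how V gene RNA differs when Erg is deleted. Over the 120 genes, the mean level was higher in control in 101, lower in 6, and 0 in both groups in 13. Neither Erg-deficient library had a count for 88 genes, and 75 of those were counted in control pre–proB cells, 41 of them with at least 10 counts. Of the 65 genes with at least 10 control counts, 24 thus had a count in an Erg-deficient library. The genes counted in both Erg-deficient libraries were Ighv2-2, Ighv2-5, Ighv14-1, Ighv9-3 and Ighv8-6.

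By the edgeR quasi-likelihood test with Benjamini-Hochberg adjustment over 13005 genes, 15 Ighv genes were lower and 0 higher at an adjusted p below 0.05, of 41 that passed the filter of 0.5 CPM in at least 2 libraries. Over all genes tested, 0.946% were lower and 0.215% higher. At an unadjusted p below 0.05, 35 Ighv genes were lower and 0 higher (all genes tested: 7.6% and 4.88%). DESeq2 called 25 lower and 0 higher, but the share of all genes it called is not given here. Of the 41 genes, 31 passed the filter on their control values alone and had to be lower to be tested. The counts and the median folds given here thus describe the genes and do not support a general decrease. The lower calls were 2 of 7 proximal, 3 of 10 other and 10 of 24 distal genes tested. In 37 of the 41 both Erg-deficient libraries lay below both control libraries, against 21.9% of all genes tested. The median fold over the 41 was 21.4-fold lower when each of 23 genes without an Erg-deficient count is set at 3 counts (16.1 for proximal, 22.4 for other and 26.0 for distal genes), while the median log2 fold change of all genes was 0.01. No call remained when any 1 of the 4 libraries was left out: between 0 and 2 genes were then called, none of them among the 15. Without a control library, 8 or 10 Ighv genes passed the filter, which then required 0.5 CPM in an Erg-deficient library. None of the 15 reached that level, so the loss of their calls in these fits was fixed by the filter.

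Distal genes called lower were without an Erg-deficient count in the 3 cases with the largest fitted change. Ighv1-19 had 34 and 102 counts in control (2.2 and 6.15 CPM) and 0 in both Erg-deficient libraries, at least 44.8-fold lower (adjusted p = 0.0433). Ighv1-64 had 64 and 58 counts (4.15 and 3.5 CPM) and 0, at least 40.2-fold lower (adjusted p = 0.0178). Ighv1-76 had 47 and 50 counts (3.04 and 3.01 CPM) and 0, at least 31.9-fold lower (adjusted p = 0.0178). The control replicates of Ighv1-64 and Ighv1-76 lay close together, unlike those of Ighv1-19. Ighv1-72, whose sequence is given above, had 93 and 133 counts in control and 0 and 1 in Erg-deficient cells, a ratio of 223 (exact 95% counting interval 39.7 to 8850, adjusted p = 0.00975). Ighv1-7 had 47 and 24 counts against 0 (at least 23.4-fold lower, adjusted p = 0.0416). The neighbouring Ighv1-5, with 13 and 43 counts against 0, missed the threshold (adjusted p = 0.0777). Its adjusted p was 0.0455 with the replicate number as a block, which is not known to pair the mice. Ighv1-4, the Ighv1 gene nearest the D segments, had 10 and 4 counts in control and 0 and 21 in Erg-deficient libraries (log2 fold change 0.59, SE 1.2, adjusted p = 0.884). Ighv1-85, the most distal gene with at least 10 counts in all, had 1 and 14 counts in control and 0 in Erg-deficient cells, too few to be tested.

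Proximal and other genes called lower had values of the same kind. Ighv5-17 had 18 and 33 control counts and Ighv5-9-1 had 30 and 19, each with 0 in both Erg-deficient libraries, so they were at least 16.8-fold and 16.1-fold lower (adjusted p = 0.0404 and 0.0415). Among other families, Ighv3-8 had 20 and 40 counts against 0 (at least 19.7-fold lower, adjusted p = 0.0404). Ighv10-1 had 64 and 49 counts against 1 and 0, a ratio of 112 (19.6 to 4450, adjusted p = 0.0178), and Ighv3-6 had 76 and 34 against 1 and 0, a ratio of 109 (19.1 to 4330, adjusted p = 0.0305). Ighv5-2, the gene nearest the D segments, had 23 and 11 counts against 0, at least 11.2-fold lower (adjusted p = 0.0766).

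Several of the most abundant V genes of control pre–proB cells were not called. Ighv1-80 had 1107 and 106 counts (71.7 and 6.39 CPM) against 0 in both Erg-deficient libraries, at least 399-fold apart (adjusted p = 0.13). Ighv2-3 had 24 and 690 counts (1.55 and 41.6 CPM) against 0, at least 235-fold apart (adjusted p = 0.207). With the replicate number as a block both passed (adjusted p = 0.00235 and 0.00437). The genotypes are different mice, and the numbers are not known to pair them. As both Erg-deficient counts are 0, the block takes up the spread between the control replicates, so these p-values do not measure it. Ighv8-8 had 490 and 5 counts against 0 and 2, a ratio of 244 (67.3 to 2020), and was not tested because 1 library alone passed 0.5 CPM. Ighv1-26, which was even between control replicates (159 and 119 counts), had 0 and 13 in Erg-deficient cells, a ratio of 21.1 (12.1 to 40.2, adjusted p = 0.0527), and Ighv1-9 had 51 and 82 against 0 and 18 (ratio 7.3, adjusted p = 0.237).

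A pair of genes stood apart in Erg-deficient replicate 2. Ighv9-3 had 65 and 62 counts in the control and 7 and 303 in the Erg-deficient libraries (4.21, 3.74, 0.435 and 19.5 CPM; log2 fold change 1.32, SE 1.13, adjusted p = 0.694). Ighv14-1 had 22 and 0 counts in the control and 1 and 299 in the Erg-deficient libraries (log2 fold change 3.77, SE 1.77, adjusted p = 0.453). Together they made up 79.6% of the V gene counts of that library, and they share no 100-base stretch with another Ighv gene. Igha, the IgA constant region gene, was at 7.58 and 139 CPM in the Erg-deficient libraries and at 196 and 294 in the control ones, and Jchain, which joins secreted IgA and IgM units, was at 9.51 and 41.9 against 97.4 and 105; both were thus higher in the Erg-deficient library that held the 2 V genes, and their part in it was not tested. Without Ighv9-3 and Ighv14-1, which were set aside after their values were seen, 49 and 154 V gene counts remained in the Erg-deficient libraries and the control mean was 36.0 times higher. The distal share of that remainder was 57.1% and 40.3%, and the proximal share 28.6% and 38.3%.

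Ighv2-2 was the proximal gene with the most counts in Erg-deficient cells. It had 47 and 19 counts in control (3.04 and 1.15 CPM) and 13 and 29 in Erg-deficient libraries (0.808 and 1.87 CPM), a ratio of 1.55 (1.04 to 2.34), with overlapping groups (log2 fold change −0.65, SE 0.574, adjusted p = 0.70). It was singled out after its values were seen. Along the locus, in bins of 20 genes from the proximal end, control over Erg-deficient mean level was 21.6, 0.977, 17.1, 41.5, 44.0 and 353-fold. The second bin contains Ighv14-1 and Ighv9-3. The most distal bin held 2116 counts in the control libraries, 1107 of them from Ighv1-80 in replicate 1, and 6 in the Erg-deficient libraries. Across the 41 genes tested, Spearman's rho of the log2 fold change with position was −0.35, a description of neighbouring genes that share libraries and control replicates.

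**Figure D5:**
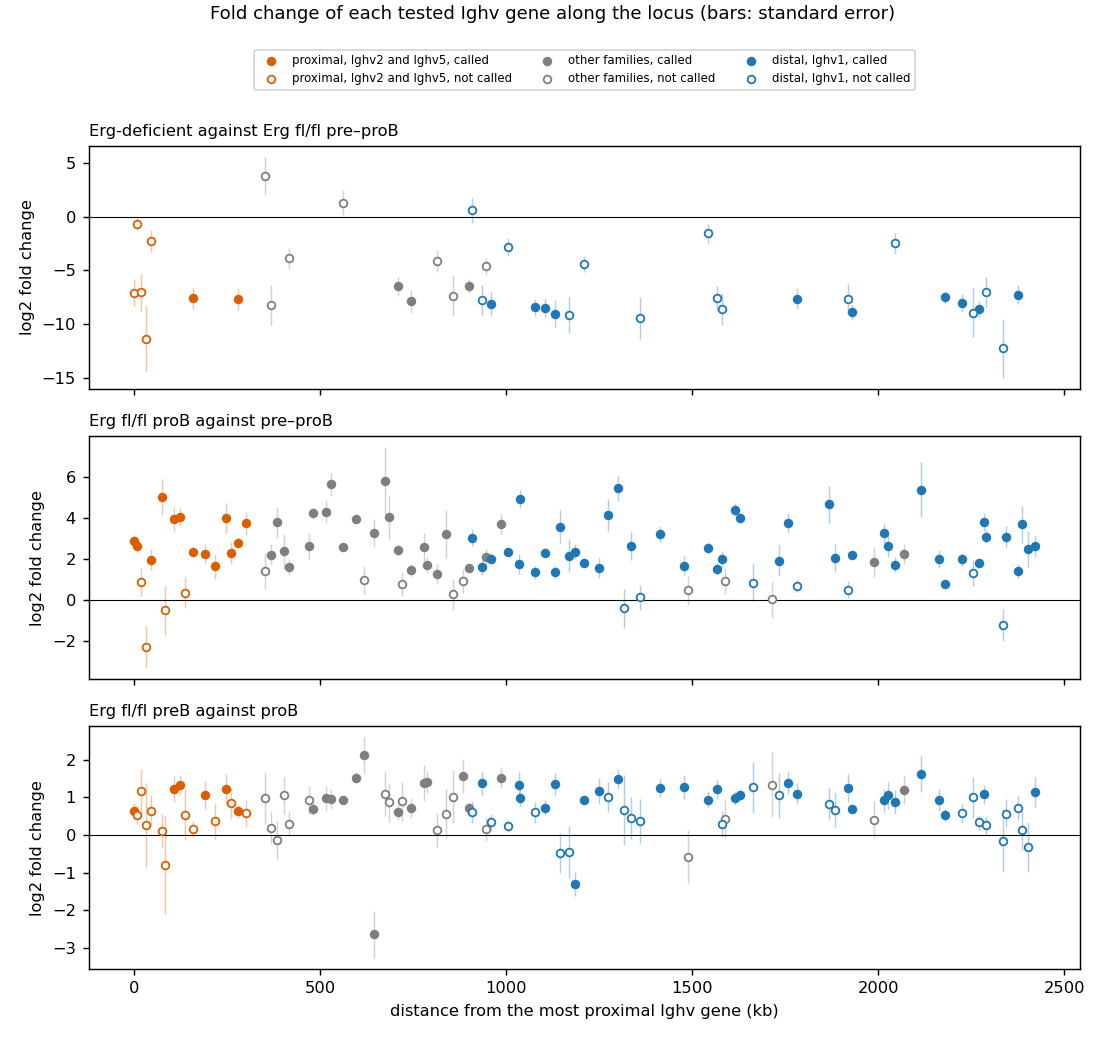
Log2 fold change (± SE) of each Ighv gene tested against its distance in kb from the most proximal Ighv gene, with 1 panel per comparison; filled symbols passed an adjusted p below 0.05 and open symbols did not. Genes without an Erg-deficient count have fitted values that depend on the prior count. In the Erg-deficient comparison 15 of 41 genes passed, all lower; in proB against pre–proB 81 of 100 passed, all higher; in preB against proB 46 were higher and 2 lower.

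J segments and the mu constant region were not called between genotypes by the same test. The 4 J segments summed to 253 and 253 CPM in control and 267 and 246 in Erg-deficient pre–proB cells (0 of 4 called at an adjusted p below 0.05), and the D segments to 5.38 and 6.03 against 6.59 and 4.44. Ighm, the mu constant region gene, was at 3170 and 2860 CPM in control and 2920 and 2820 in Erg-deficient cells (log2 fold change −0.07, adjusted p = 0.784). Among other constant region genes, Ighg3 was at 226 and 214 CPM in control and 0.186 and 0.193 in Erg-deficient cells. It was lower (−10.13, adjusted p = 5.67e-07), as were Ighg2c (−8.79, adjusted p = 0.00296) and Ighg2b (−5.08, adjusted p = 0.0178). Ighg1 (−3.86, adjusted p = 0.0787), Igha (−1.76, adjusted p = 0.499) and Ighd (−0.41, adjusted p = 0.0908) were not called. Of 36 genes of V(D)J recombination and Igh locus contraction, 5 were lower and 0 higher, beside 0.946% and 0.215% of all genes tested. The recombinase genes Rag1 (285 and 119 CPM in control, 7.95 and 8.44 in Erg-deficient cells; log2 fold change −4.63, adjusted p = 0.0178) and Rag2 (−3.40, adjusted p = 0.0241) were among them. The others were the B lineage factors Ebf1 (−6.39, adjusted p = 0.0178) and Pax5 (−6.06, adjusted p = 0.0356) and the octamer coactivator Pou2af1 (−5.20, adjusted p = 0.0178). Pax5 was the member called among 10 locus contraction and looping genes, whose median log2 fold change was −0.04. Of 10 end joining genes 0 passed, with a median of −0.45. Among those below control in both Erg-deficient libraries were Lig4 (26.6 and 17.7 against 10.1 and 10.2 CPM, adjusted p = 0.0626), Xrcc6 (203 and 128 against 95.4 and 106) and Poll (4.4 and 2.65 against 1.18 and 1.16). Xrcc4 (0.05) and Dclre1c (0.11) had log2 fold changes above 0.

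The comparison of proB with pre–proB control cells asks how V gene RNA differs between these stages. Joining of V to DJ was not measured. Of 100 Ighv genes tested in the fit of 6 control libraries, 81 rose and 0 fell (edgeR, adjusted p below 0.05 over 13650 genes), and 0 Ighv genes were lower at an unadjusted p below 0.05, against 37.7% of all genes. Over all genes tested 36.2% rose and 36.8% fell. Of the 100 genes, 36 were below 0.5 CPM in both pre–proB libraries and were tested through the later stages alone, 34 of them among the 81. The counts and the median fold changes given here thus describe the genes and do not support a general increase. The genes that rose were 13 of 17 proximal, 24 of 32 other and 44 of 51 distal genes. The median log2 fold change was 2.36 for proximal, 2.24 for other and 2.16 for distal genes (2.25 over the 100) beside 0.0 for all genes, and its Spearman's rho with position was −0.09. In 83 genes both proB libraries lay above both pre–proB libraries (42.8% of all genes tested). Leaving out pre–proB replicate 1 or 2 gave 2 or 4 genes that were lower.

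The 9 genes with the largest increases by class were all below 0.5 CPM in both pre–proB libraries, so the filter kept them for their later levels and their low start favours a large fold. Among distal genes, Ighv1-12 had 2 and 2 counts in pre–proB and 90 and 60 in proB cells (log2 fold change 4.95, SE 0.431, adjusted p = 1.0e-05), and Ighv1-36 had 1 and 0 against 28 and 34 (5.45, SE 0.606, adjusted p = 4.78e-05). Ighv1-70, which GENCODE calls a pseudogene, went from 0 in both libraries to 7 and 4 counts, at least 3.15-fold (adjusted p = 0.00766). Among proximal genes, Ighv5-12 had 7 and 1 against 71 and 86 counts (4.05, SE 0.448, adjusted p = 4.66e-05), Ighv2-4 had 1 and 0 against 31 and 15 (5.03, SE 0.888, adjusted p = 0.000872) and Ighv5-15 had 4 and 0 against 51 and 27 (4.01, SE 0.736, adjusted p = 0.0011). Among other families, Ighv9-2 had 1 and 1 against 45 and 84 counts (5.65, SE 0.544, adjusted p = 1.92e-05), Ighv9-1 had 1 and 4 against 39 and 81 (4.31, SE 0.568, adjusted p = 0.00014), and Ighv3-4 went from 0 to 12 and 3, at least 4.29-fold (adjusted p = 0.0131).

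The genes that led the pre–proB libraries did not pass the test. Ighv1-80 was at 71.7 and 6.39 CPM in pre–proB and 22.1 and 10.5 in proB cells (log2 fold change −1.23, SE 0.801, adjusted p = 0.195), Ighv2-3 at 1.55 and 41.6 against 3.36 and 5.33 (−2.31, SE 1.01, adjusted p = 0.0678), and Ighv8-8 at 31.7 and 0.301 against 17.4 and 14.4 (0.03, adjusted p = 0.974). Each of these had pre–proB values on both sides of the proB values, and each was called in one direction without pre–proB replicate 1 and in the other without replicate 2: 5.64 and −1.0 for Ighv8-8, −3.3 and 1.48 for Ighv2-3, and 1.3 and −2.14 for Ighv1-80. Ighv9-3, even between replicates, rose from 4.21 and 3.74 to 24.5 and 22.6 CPM (2.59, SE 0.11, adjusted p = 1.4e-07). Over the same step the J segments fell from 253 and 253 to 44.7 and 49.4 CPM (4 of 4 called), and Ighm was at 4510 and 4290 CPM in proB cells. Of the 36 recombination and contraction genes 28 rose and 6 fell, beside 36.2% and 36.8% of all genes tested.

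The last comparison, preB with proB control cells, covers the stage at which a joined heavy chain is expressed. Of the same 100 genes 46 rose and 2 fell, beside 29.0% and 29.9% of all genes tested. The genes that rose were 6 of 17 proximal, 14 of 32 other and 26 of 51 distal genes. The median log2 fold change was 0.63 for proximal, 0.9 for other and 0.92 for distal genes (0.85 over the 100), with a Spearman's rho with position of 0.05. In 77 genes both preB libraries lay above both proB libraries (38.6% of all genes tested). Leaving out any 1 library of these groups lowered the number called to between 16 and 31.

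Among the distal genes that rose, Ighv1-36 went from 28 and 34 to 76 and 84 counts (log2 fold change 1.48, SE 0.267, adjusted p = 0.00163) and Ighv1-59 from 51 and 79 to 123 and 192 (1.39, SE 0.293, adjusted p = 0.00364), while Ighv1-70 remained scarce at 17 and 15 (1.63, adjusted p = 0.0208). Ighv1-26 rose from 30.1 and 29.7 to 52.0 and 59.2 CPM (0.93, adjusted p = 0.00027). The proximal genes Ighv5-12 (164 and 197 counts in preB cells; 1.32, SE 0.266, adjusted p = 0.00295), Ighv2-5 (from 52 and 60 to 113 and 130; 1.23, SE 0.35, adjusted p = 0.0151) and Ighv5-15 (73 and 96; 1.22, SE 0.414, adjusted p = 0.0318) rose by similar factors. In other families, Ighv3-3 went from 10 and 6 to 31 and 34 counts (2.12, SE 0.473, adjusted p = 0.00488) and Ighv8-2 from 15 and 14 to 37 and 43 (1.57, SE 0.445, adjusted p = 0.015). Ighv9-3 reached 43.0 and 43.9 CPM (0.92, SE 0.0852, adjusted p = 4.55e-05).

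The genes that fell were Ighv7-4 and Ighv1-23, and without preB replicate 2 neither was called. Ighv7-4 went from 133 and 70 counts in proB cells (7.32 and 3.66 CPM) to 18 and 12 in preB cells (1.03 and 0.672 CPM; log2 fold change −2.64, SE 0.627, adjusted p = 0.00666), after 1.1 and 0.0603 CPM in control pre–proB cells. Ighv1-23, named because it was the only other one, went from 41 and 54 to 21 and 14 counts (−1.31, SE 0.315, adjusted p = 0.00705). Over the step J segments were at 95.2 and 64.7 CPM in preB cells (3 of 4 higher) and Ighm at 8730 and 9200 CPM. Of the 36 recombination and contraction genes 14 rose and 12 fell, beside 29.0% and 29.9% of all genes tested.

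By family, levels followed several patterns. The 2 Ighv7 genes summed to 1.1 and 0.0603 CPM in control pre–proB cells, to 7.32 and 3.66 at the proB stage and to 1.03 and 0.672 at the preB stage, with no count in the Erg-deficient libraries. The 10 Ighv8 genes summed to 40.2 and 1.63 CPM in control pre–proB, 32.9 and 25.6 in proB cells, 65.6 and 61.1 in preB cells, and 0.0621 and 0.193 without Erg. The 4 Ighv9 genes summed to 4.73 and 6.69, 31.2 and 34.4, 60.5 and 61.0, and 0.435 and 19.5 CPM, and the 4 Ighv14 genes to 7.45 and 2.23, 24.0 and 25.5, 43.4 and 45.4, and 0.0621 and 19.9 CPM. The high Erg-deficient value of each of the latter families came from 1 gene in 1 library. In the proximal class, Ighv2 stood at 7.06 and 47.7, 33.9 and 31.1, 46.5 and 52.4, and 0.87 and 2.51 CPM, and Ighv5 at 7.51 and 38.7, 52.4 and 77.6, 95.4 and 107, and 0 and 1.29 CPM, so Ighv5 exceeded Ighv2 in each proB and preB library and was below it in 3 of the 4 pre–proB libraries.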

How the data were processed

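Bone marrow B cell progenitors were sequenced as 8 libraries, 2 for each of 4 groups assigned from the labels. Per the submitters' processing notes the tools were CASAVA 1.8.2, Trim Galore, STAR and featureCounts with build mm10 (GRCm38). The authors deposited raw read counts per Entrez Gene identifier, 27179 genes, without normalization. Not given in the sources used here are the use of strand and the handling of reads that match more than 1 gene. RefSeq symbols and GRCm38 coordinates were matched to 25275 identifiers, and the other 1904 held 0.577% of counts and stayed in the tests. A replicate is a separately sorted sample, so p-values measure the spread between these samples. The paper describes sorting from 2 mice of each genotype. The control stages may thus share mice, which the main fits do not model.

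CPM used TMM-normalized library sizes over 8 libraries. Tests were made with edgeR 4.0.16 (glmQLFit, legacy, and glmQLFTest) in R 4.3.3, in 1 fit of the 4 pre–proB and 1 of the 6 control libraries, on genes at 0.5 CPM or more in at least 2 libraries, with Benjamini-Hochberg adjustment over all genes and calls at an adjusted p below 0.05. The procedure was tested on simulated data. DESeq2 1.42.0, other normalizations and filters, all libraries in 1 fit, a replicate block and leaving out single libraries were the alternatives. Figures used matplotlib 3.10.9. The SE of a log2 fold change was derived as its absolute value divided by the square root of the quasi-likelihood F statistic. Intervals of counts are exact 95% intervals. Intervals and the limit of 3 counts, taken over the group for folds, cover counting error only.

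The members and gene lists were chosen with earlier results of these data known. Named genes were, for each comparison and class, up to 3 called members of largest change with groups that do not overlap, the 2 members of highest level per kilobase in each group, the most proximal and most distal member with at least 10 counts, and Ighv1-4, Ighv1-5 and Ighv1-7. Ighv2-2, Ighv1-72, Ighv5-9, Ighv1-22, Ighv1-23 and members named for a rank or count in a sentence were added after their values were seen. Of the early B cell marker list, 1 gene is not reported here.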

Additional observations from a re-analysis of the deposited data

How the results depend on the processing

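The number of Ighv genes called between genotypes (15) became 23 with no filter, 25 with the DESeq2 test, 31 in 1 fit of all 8 libraries and 27 with the replicate block, and the 15 were called in each of these. Shares of all genes called in these settings are not given here, so the larger numbers cannot be set beside them. The number called is followed below. Few Ighv genes were called between genotypes when 1 library was left out, and none of them was among the 15. In each such fit the lone library was assumed to vary like the other group. Without a control library none of the 15 passed the filter, so they could not be called. The 81 calls of proB against pre–proB stayed between 69 and 88. The 48 calls of preB against proB became 29 with the DESeq2 test (27 higher, 2 lower), 51 with the block, and 16 to 31 with 1 library left out, 16 without preB replicate 2, all higher. Among named genes the block changed the call of Ighv2-3, Ighv1-80 and Ighv1-5 between genotypes and no other. Same-numbered replicates did not deviate together in all pairs of groups, so the numbers were not taken as pairs in the main fits. Correlations were between −0.03 and 0.12 over 13815 genes and between −0.1 and 0.37 over 100 Ighv genes. The 0.37 was for control pre–proB with proB, stages that may share mice.

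The control to Erg-deficient ratio of summed levels (9.12) was 9.0 with DESeq2 size factors, 9.41 with total counts, 36.0 without Ighv9-3 and Ighv14-1, an alternative chosen after seeing the data, and 4.89 to 67.2 with 1 library left out; 67.2 was without Erg-deficient replicate 2. The ratio of proB to pre–proB ranged from 2.31 to 3.09 and that of preB to proB from 1.51 to 1.65. Ighv8 added to the distal class moved the distal share from 54.1% to 58.8% in proB and from 53.4% to 59.8% in preB cells, and values per kilobase gave 54.9% in preB cells. The mean proximal share in Erg-deficient cells (16.2%) became 33.4% without Ighv9-3 and Ighv14-1. With 2 libraries per group, a share with 1 library left out is that of the other library, so these ranges restate the replicates. The distal share ranged from 43.4% to 59.1% in control pre–proB, 52.4% to 55.8% in proB, 52.9% to 53.8% in preB and 8.2% to 49.1% in Erg-deficient cells. The proximal share ranged from 5.35% to 42.5%, 14.3% to 16.5%, 14.7% to 15.6% and 7.8% to 24.6%. The share of the 5 highest genes ranged from 42.8% to 50.9%, 19.1% to 20.5%, 19.4% to 19.8% and 86.0% to 88.8%, and per kilobase it moved from 19.8% to 21% in proB cells.

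Signs turned for single genes that were not called with all libraries, given here as ranges of the log2 fold change with 1 library left out. Between genotypes Ighv9-3 ranged from −3.17 (without Erg-deficient replicate 2) to 2.29. In proB against pre–proB, Ighv2-3 ranged from −3.3 to 1.48 (without pre–proB replicate 2), Ighv1-80 from −2.14 to 1.3 (without pre–proB replicate 1), and Ighv8-8 from −1.0 (without pre–proB replicate 2) through −0.10 (without proB replicate 1) to 5.64, with −0.00 in the fit of all 8 libraries. Without the pre–proB library named, Ighv2-3 and Ighv1-80 were called higher and Ighv8-8 lower (adjusted p = 0.00638, 0.0159 and 0.000123), and without the other pre–proB library the calls were the opposite (5.69e-07, 9.74e-05 and 5.9e-07). In preB against proB, Ighv2-3 ranged from −0.02 to 0.63, Ighv5-9-1 from −0.05 to 0.36 and Ighv1-80 from −0.61 to 0.48, each turning without proB replicate 1. Ighv2-4 ranged from −0.37 to 0.76 and was negative without proB or preB replicate 2 (−0.18). Away from leaving out libraries, 563 single-gene values kept direction and side of the threshold, 14 passed anew, 17 no longer passed and 1 changed sign. With a library left out these numbers were 232, 10, 60 and 10. The causes were not tested. The search for promoter motifs was not run, since no promoter sequence of an Ighv gene was used here. Depth limits a gene without a count to at most 0.157 to 0.194 CPM.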
